A study of Mus musculus with 116 samples.

Results

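Galectins are small proteins that bind sugars containing galactose. The 4 galectin genes described here, Lgals1, Lgals3, Lgals8 and Lgals9, were taken by name from the count files of all library groups, and they are 4 of the 40202 gene symbols counted in each of 116 sequencing libraries. All libraries came from mouse cell lines handled with nanoSPLITS, a method that divides a nanodroplet of cell lysate so that RNA can be sequenced from one portion. The labels call the C10 line alveolar type II epithelium, the surfactant-making lining of the lung, and the SVEC line endothelial. A C10 input series held 8 libraries of 1 cell, 6 of 3 cells and 6 of 10 cells. A separate set held single cells of C10 (48 libraries, of which 46 were used) and SVEC (48 libraries). The cells were untreated and grown by standard culture, and the labels name no genotype, passage or separate culture for any library.

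Galectins are made without a secretion signal and leave the cell by an unconventional route, so they act both in the cytoplasm and on glycoproteins at the cell surface. Galectin-1 (Lgals1) has a single sugar-binding domain and pairs with itself. Galectin-3 (Lgals3) joins such a domain to a flexible tail through which it forms larger assemblies. Galectin-8 (Lgals8) and galectin-9 (Lgals9) each carry a pair of different domains in 1 chain. Galectin-3, galectin-8 and galectin-9 are also known to gather on damaged endosomes and lysosomes, where sugars of the inner face become exposed, and galectin-8 recruits autophagy receptors there.

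The coding stretches of the sugar-binding domains are shown because they are what the 4 genes share, and because their number sets Lgals8 and Lgals9 apart from Lgals1 and Lgals3. Each runs 5′ to 3′ from the codons of the sugar-binding motif to the codons of the tryptophan motif that follows it, both in capitals, in the transcript with the longest coding sequence of each gene in GENCODE M21 (GRCm38).

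Lgals1, codons 45 to 72: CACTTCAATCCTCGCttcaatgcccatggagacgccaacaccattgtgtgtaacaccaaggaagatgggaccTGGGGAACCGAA
Lgals3, codons 172 to 198: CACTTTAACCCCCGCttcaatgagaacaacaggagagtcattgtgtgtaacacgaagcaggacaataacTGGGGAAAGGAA
Lgals8, codons 64 to 88: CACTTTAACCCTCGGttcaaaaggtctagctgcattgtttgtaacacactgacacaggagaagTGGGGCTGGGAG
Lgals8, codons 237 to 260: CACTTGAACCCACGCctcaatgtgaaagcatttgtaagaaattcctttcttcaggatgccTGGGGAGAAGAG
Lgals9, codons 60 to 84: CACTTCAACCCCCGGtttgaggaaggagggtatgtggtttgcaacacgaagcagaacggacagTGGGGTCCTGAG
Lgals9, codons 265 to 288: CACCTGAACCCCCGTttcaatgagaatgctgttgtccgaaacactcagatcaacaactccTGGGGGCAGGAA

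Lgals1 (135 coding codons) and Lgals3 (264 codons) each held 1 such stretch, and Lgals8 (325 codons) and Lgals9 (353 codons) each held 2. Of 21562 coding genes, 7 had both motifs in this order, and all 7 were galectins: the 4 members, Lgals2, Lgals4 and Lgals7. A second stretch was found in Lgals4, Lgals8 and Lgals9. On GRCm38, GENCODE M21 places Lgals1 at chr15:78926725-78930465 on the plus strand, Lgals3 at chr14:47367751-47386160 on the plus strand, Lgals8 at chr13:12439415-12464944 on the minus strand and Lgals9 at chr11:78962974-78984946 on the minus strand. Exons of Lgals8 overlap exons of Heatr1, a protein-coding gene on the opposite strand. The strand setting of the counting is not given in the sources used here, so reads of both genes cannot be told apart in the overlap, and every Lgals8 value below carries that limit.

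The promoter windows of the members with a RefSeq entry (GRCm38.p6) are shown because Lgals8 and Lgals9 were the members with higher mean levels in SVEC, while Lgals3 was close to equal. Each covers 120 bases before and 30 from the listed start, 1 start per gene, written 5′ to 3′ along the gene's strand. Capitals mark matches, on either strand, to GGGCGG (GC box) in Lgals3 and to the core of interferon response elements (GAAA, any 2 bases, GAAA) in Lgals9.

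Lgals3, chr14:47373740-47373889, plus strand: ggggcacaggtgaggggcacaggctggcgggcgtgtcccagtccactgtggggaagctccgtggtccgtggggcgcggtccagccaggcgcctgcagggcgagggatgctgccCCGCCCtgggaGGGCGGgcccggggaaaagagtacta
Lgals8, chr13:12461709-12461858, minus strand: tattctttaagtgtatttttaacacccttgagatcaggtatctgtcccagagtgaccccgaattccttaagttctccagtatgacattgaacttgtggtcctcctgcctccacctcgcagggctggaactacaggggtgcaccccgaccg
Lgals9, chr11:78984895-78985044, minus strand: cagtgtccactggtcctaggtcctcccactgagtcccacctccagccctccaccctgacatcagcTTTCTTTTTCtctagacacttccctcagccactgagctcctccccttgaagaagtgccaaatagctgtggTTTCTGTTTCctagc

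Lgals9 held 2 matches to the interferon element core, a motif present in 1.53% of 32851 windows of the same length, and Lgals3 held 2 GC boxes, present in 29.1% of them. The Lgals8 window held neither. The Lgals3 and Lgals8 windows lie wholly inside the GENCODE spans of their genes given above. Their listed starts are thus not the outermost ones, and other starts of these genes were not searched. No match to the STAT element (TTCNNNGAA) was found in these 3 windows. The TATA box, searched as TATAAA, was also without a match there, as was the AP-1 element that many growth signals act through, searched as TGANTCA. The window of Lgals3bp, a binding partner described below with a higher mean in SVEC, held no match to any of these motifs. These are matches of letters only, and their part in the levels was not tested.

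Library depth differed between the groups. Totals ran from 83188 to 5911755 counts in the C10 single cells (median 1881700) and from 5122 to 2831907 in SVEC (median 434945), and the median totals of the input series lay between 10157100 and 11425100. The median mitochondrial share was 7.14% in C10 and 4.30% in SVEC single cells. Levels below are CPM, the counts of a gene scaled to a library total of 1000000. One 1-cell library, replicate 1, stood apart with 430798 counts on 538 genes and 64.6% of them mitochondrial, and it had no count for any of the 4 galectins. Most markers of both labels were at or near 0 in the single cells. Kdr, Tie1, Vwf, Emcn and Esam (endothelial) and Sftpa1, Sftpb, Sftpc, Sftpd, Nkx2-1 and Slc34a2 (alveolar type II) were at 0 in every C10 and SVEC cell. The other 5 of 10 endothelial and 4 of 10 alveolar type II markers were counted in some cells. Flt1 had means of 0.592 CPM in C10 (13 of 46 cells) and 11.4 CPM in SVEC (8 of 48 cells). Tek and Pecam1, also endothelial markers, had higher means in C10 instead. Tek had 0.720 CPM in C10 and 0.0937 CPM in SVEC (7.68-fold), and Pecam1 had 0.287 and 0.225 CPM. Abca3 had 12.4 CPM (14 cells) and 7.46 CPM (6 cells), Etv5 had 3.53 CPM (24 cells) and 1.82 CPM (3 cells), and the epithelial marker Cdh1 had 1.01 CPM (24 cells) and 0.0300 CPM (1 cell). The lines are therefore called here by their names. Of 10 macrophage markers, a cell type rich in galectin-3, Ptprc, Csf1r, Tyrobp and Marco were also at 0 in both lines, and the list's summed level had a median of 0 CPM in both (highest C10 cell 88.4 CPM, highest SVEC cell 547 CPM, and 5 and 4 of the 10 genes counted at all). Cd14, the only macrophage marker with counts in enough cells to be compared, had means of 11.4 CPM in C10 and 27.1 CPM in SVEC (2.38-fold higher in SVEC). Line, sequencing run and depth cannot be told apart in these labels.

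C10 and SVEC single cells differed in which galectins made up the pool. Lgals1 had a mean level 2.12-fold higher in C10, while Lgals8 and Lgals9 had mean levels 2.71-fold and 2.50-fold higher in SVEC, and Lgals3 was at nearly the same mean level in both lines (ratio 0.983). Thus 3 of the 4 members were past 2-fold, 1 higher in C10 and 2 higher in SVEC, where 37.4% of the 9303 genes compared were past 2-fold (18.9% higher in C10, 18.5% higher in SVEC). The ratios are of means over cells with equal weight. Each line counts as 1 sample, because every library is 1 cell of an unnamed culture, so these ratios have no test and the spreads are between cells.

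Lgals1 was counted in every one of the 94 single cells. In C10 its lowest, median and highest values were 2706, 5040 and 12001 CPM, and in SVEC they were 844, 2569 and 4423 CPM. The ranges overlapped, but 31 of 46 C10 cells lay above the highest SVEC cell and 26 of 48 SVEC cells lay below the lowest C10 cell. All 46 C10 cells were above the SVEC median, and 0 SVEC cells were above the C10 median. The means were 5444 ± 1969 CPM (SD between cells, n = 46) and 2572 ± 946 CPM (n = 48), a log2 ratio of 1.08. On the scale of log2(CPM + 1), the means differed by 1.11, which was more than the SD between cells of a line (0.55). Of the 4 members, only Lgals1 differed between the lines by more than that SD. Pooled over cells, Lgals1 had 507869 of 99332009 counts in C10 (5113 CPM, 95% Poisson interval 5099 to 5127) and 67050 of 29017802 in SVEC (2311 CPM, 2293 to 2328). Without unique molecular identifiers, such intervals cover counting error only. Fibroblasts also express Lgals1, and the summed level of 8 such markers had a median of 2392 CPM in C10 (475.6 to 15368) and 1251 CPM in SVEC (0 to 11331), with Lum and Thy1 at 0 in both lines. None of the 3 that could be compared was past 2-fold: Dcn, which carried most of the sum, had a log2 ratio of 0.99, Col1a1 of 0.60 and Col3a1 of -0.44. Their part in the Lgals1 ratio was not tested.

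Lgals3 was the second galectin by level in both lines. It was counted in all 46 C10 cells, with lowest, median and highest values of 200, 1026 and 4211 CPM. In SVEC it was counted in 45 of 48 cells, from 0 through a median of 904 to 3124 CPM. The ranges overlapped almost wholly: 28 C10 cells were above the SVEC median and 21 SVEC cells above the C10 median. The means were 1104 ± 652 CPM in C10 and 1123 ± 788 CPM in SVEC. The sign of this small ratio turned with the scaling (log2 -0.02 on library totals, 0.31 with TMM factors). The 3 SVEC cells at 0 had 6591 to 95959 counts in all.

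Lgals8, the galectin that marks broken endosomes for autophagy, was low and unevenly counted. In C10 it was counted in 31 of 46 cells, from 0 through a median of 37.0 to 611 CPM. In SVEC it was counted in 31 of 48 cells, from 0 through 136 to 2411 CPM. The mean levels were 85.2 ± 125 CPM and 231 ± 437 CPM (log2 ratio -1.44), and only 4 SVEC cells lay above the highest C10 cell. Among cells with a count, the ratio was 2.83 in favour of SVEC. The difference of the means of log2(CPM + 1), -0.84, was well inside the SD between cells (3.62). Leaving out SVEC replicate 44, the cell at 2411 CPM (402 of its 166762 counts), brought the log2 ratio to -1.11. The next highest SVEC cell, replicate 24, was at 1782 CPM (171 of its 95959 counts, 27.5% of the total mitochondrial). Cells of at least 100000 counts, which leave out replicate 24, gave -1.29. The ratio without both replicates was not computed.

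The share of cells with an Lgals8 count was not set apart by line. Drawn down to 100000 counts per cell, which left out 1 C10 and 6 SVEC cells, Lgals8 would be counted in 63.2% of C10 and 65.8% of SVEC cells on average, against 68.9% and 66.7% of the same cells at full depth. The 15 C10 cells without an Lgals8 count included one with 2860576 counts, in which 0 counts allow at most 1.05 CPM (3 counts). That limit covers counting error only, not molecules lost when the lysate was split or the cDNA was made.

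Lgals9, a pair-domain galectin best known as a ligand of immune receptors, was higher in most SVEC cells. In C10 it was counted in 41 of 46 cells, from 0 through a median of 265 to 1391 CPM. In SVEC it was counted in 45 of 48 cells, from 0 through 657 to 2323 CPM. The ranges overlapped, with 6 SVEC cells above the highest C10 cell, 39 of 48 SVEC cells above the C10 median and 5 of 46 C10 cells above the SVEC median. The means were 295 ± 284 CPM and 738 ± 533 CPM, a log2 ratio of -1.32, and on log2(CPM + 1) they differed by -1.76 against an SD between cells of 2.81. At 100000 counts Lgals9 would be counted in 85.0% of C10 and 96.5% of SVEC cells.

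How the counts were scaled moved these ratios. With TMM factors, which fit each library to the bulk of its genes, the median log2 ratio of all genes went from 0.01 to 0.35, and the share of past-fold genes that were higher in C10 went from 50.6% to 69.0%. Lgals8 (-0.88) and Lgals9 (-0.92) were then under 2-fold and Lgals1 was at 1.48. Relative to the median of all genes, the same fit gave 1.13 for Lgals1, -0.04 for Lgals3, -1.23 for Lgals8 and -1.27 for Lgals9. On library totals the values relative to that median were 1.07, -0.04, -1.45 and -1.33. Pooled counts gave -0.99 for Lgals8 and -0.92 for Lgals9, and medians over cells gave 0.97 for Lgals1, each just under 2-fold. With medians over cells, the genes that gave a ratio had a median of 0.48. A gene with a median of 0 in a line, but a count in some of its cells, gave no ratio. This reference thus covers fewer genes than those of the other scalings. Relative to 0.48, Lgals1 was at 0.49, well under 2-fold, Lgals3 at -0.29, Lgals8 at -2.36 and Lgals9 at -1.78. No scaling turned the direction of Lgals1, Lgals8 or Lgals9.

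**Figure D1:**
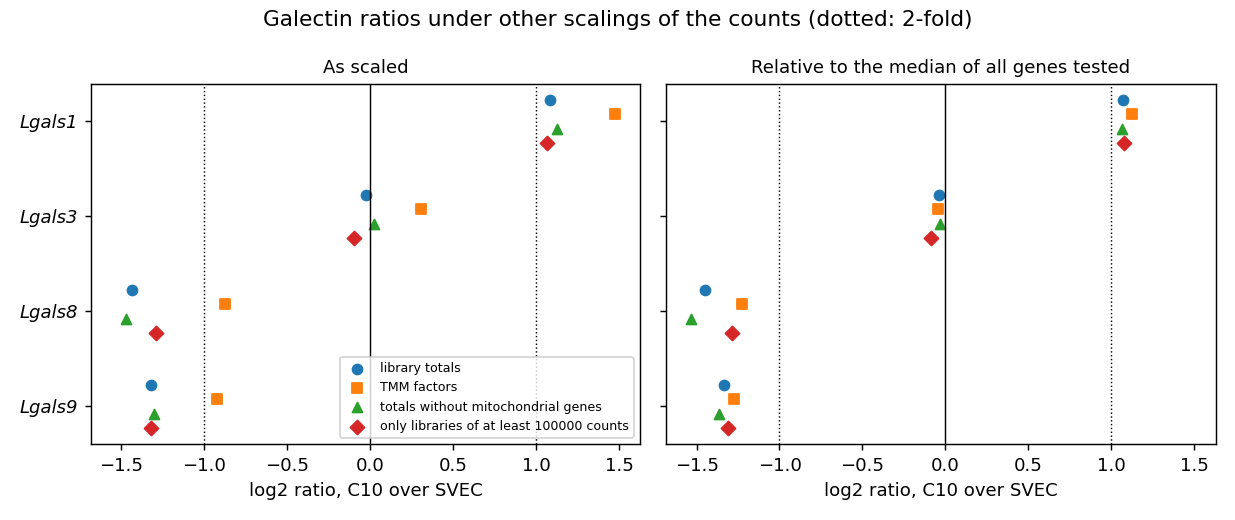
Log2 ratio of each galectin, C10 over SVEC single cells, with counts scaled to library totals, with TMM factors, with totals that leave out mitochondrial genes, and over libraries of at least 100000 counts; the left panel shows the ratios as scaled and the right panel shows them relative to the median of all genes compared. As scaled, Lgals8 and Lgals9 cross the 2-fold line with TMM factors, and relative to the median all 4 scalings keep Lgals1, Lgals8 and Lgals9 past it. Medians over cells are not drawn, and with them Lgals1 was at 0.49 relative to a median over fewer genes.

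Shares within the 4 galectins do not depend on how libraries are scaled, and they were computed after the ratios above had been seen. In C10, Lgals1 made up a median of 77.8% of a cell's galectin counts (range 58.6 to 95.3%), against 55.7% in SVEC (19.1 to 100%). All 46 C10 cells were above the SVEC median, and 2 SVEC cells were above the C10 median. For Lgals9 the medians were 3.82% in C10 and 14.8% in SVEC, with 42 of 48 SVEC cells above the C10 median and 0 C10 cells above the SVEC median. Lgals3 made up 15.5% and 22.1%, and Lgals8 0.562% and 3.17%. The SVEC pool was thus less dominated by Lgals1 in most cells.

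**Figure D2:**
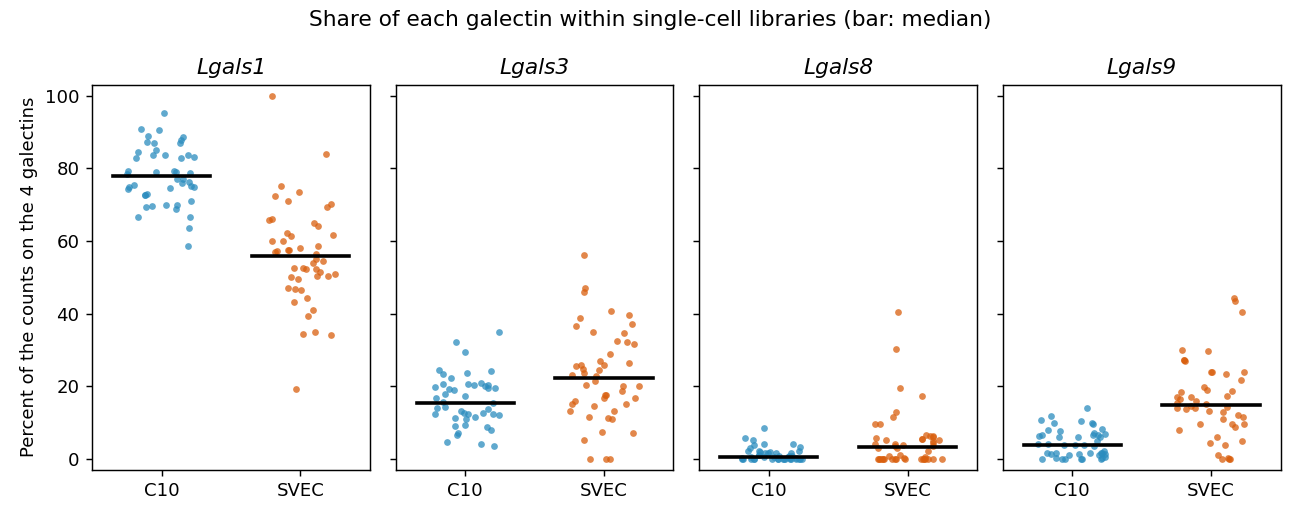
Percent of the counts on the 4 galectins that fell on each of them in every C10 and SVEC single cell; each point is 1 cell and the bar is the median. The Lgals1 share has a median of 77.8% in C10 and 55.7% in SVEC, and the Lgals9 share 3.82% and 14.8%.

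Lgals1 was the most counted galectin in all 46 C10 cells and in 44 of 48 SVEC cells. The other SVEC cells were led by Lgals9 (2 cells), Lgals3 (1 cell) and Lgals8 (1 cell). Second place was held by Lgals3 in 43 C10 and 28 SVEC cells and by Lgals9 in 3 C10 and 15 SVEC cells. All 4 galectins were counted in 27 of 46 C10 cells and 27 of 48 SVEC cells. Together the 4 genes took a median of 0.651% of all counts in C10 and 0.450% in SVEC.

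Levels of different genes were compared per kilobase of merged exons (GENCODE M21: Lgals1 0.903 kb, Lgals3 1.858 kb, Lgals8 3.688 kb, Lgals9 2.137 kb). The order Lgals1, Lgals3, Lgals9, Lgals8 held for the mean CPM per kb of all 5 library groups. In C10 single cells the means were 6029, 594, 138 and 23.1 CPM per kb, and in SVEC they were 2848, 604, 345 and 62.6 CPM per kb. For each gene, the groups next to each other in the order of mean CPM differed by less than the SD between their libraries on log2(CPM + 1). The 1-cell group includes replicate 1, which had no galectin count. The SD of Lgals1 on that scale was 4.27 in the 1-cell group and 0.49 in C10 single cells. These differences were not computed without replicate 1. Lgals1 was highest in the 10-cell libraries and lowest in SVEC, and Lgals3, Lgals8 and Lgals9 had their highest means in SVEC.

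The 4 genes varied between cells to different degrees. The coefficient of variation of CPM was 0.362 in C10 and 0.368 in SVEC for Lgals1, 0.591 and 0.702 for Lgals3, 0.962 and 0.722 for Lgals9, and 1.47 and 1.89 for Lgals8. Within a line the galectins followed each other only weakly: the Spearman correlation of Lgals1 with Lgals3 was 0.21 over 46 C10 cells and 0.34 over 48 SVEC cells, and that of Lgals8 with Lgals9 was 0.04 and -0.28. Lgals8 correlated with the total counts of the cell at 0.44 in C10 and 0.27 in SVEC. These are descriptions of cells that share a culture and a library depth.

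By the mean over both lines of the within-line Spearman correlation, among 2943 genes counted in at least 50% of the cells of each line, the genes most like Lgals1 were Elob (0.63), Tmsb4x (0.54) and Uqcr11 (0.53). Elob encodes elongin B, a ubiquitin-ligase subunit, Tmsb4x an actin-binding peptide and Uqcr11 a respiratory chain subunit. Genes most like Lgals3 included Cdk2ap2 (0.39) and Tpm3 (0.36), which encodes a tropomyosin. Lgals9 was closest to Grn (0.42), which encodes the lysosomal protein progranulin, then Aldh3b1 and Alad. For Lgals8 the nearest were Tex261, Fos and Morf4l1 (each 0.38), with Fos at 0.60 in SVEC and 0.16 in C10. Tex261 was uneven the other way (0.59 in C10 and 0.17 in SVEC), as was Alad with Lgals9 (0.51 and 0.22). Each name is among the highest of 2943 correlations over 46 and 48 cells. How high such a pick reaches by chance was not tested.

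Other genes of the family had lower mean levels than the 4 members in the single cells. Lgals2 had a mean of 43.0 CPM in C10 (29 of 46 cells) and 23.0 CPM in SVEC (12 of 48 cells). In the input series it was counted in 3 of 8 libraries of 1 cell, all 6 of 3 cells and all 6 of 10 cells. Its means there were 10.3, 51.4 and 23.7 CPM. Lgalsl, which encodes a galectin-like protein, had 13.5 CPM in C10 (12 of 46 cells) and 1.08 CPM in SVEC (3 of 48 cells), 12.5-fold higher in C10. Lgals4, a gut galectin, was counted in 1 C10 and 3 SVEC cells. Lgals7, Lgals12 and Grifin had 0 counts in all single cells, which allows a share of up to 6.52% of C10 and 6.25% of SVEC cells with a count. Lgals7 was counted in 2 of 6 libraries of 3 cells and Lgals12 in 1 of 6 libraries of 10 cells. Thus 2 of the 6 other family genes reached the minimum of cells with a count, and 1, Lgalsl, was past 2-fold. Among all genes compared, 37.4% were past 2-fold and 18.9% were higher in C10. With TMM factors, and with pooled counts, both Lgals2 and Lgalsl were past 2-fold. Lgalsl reached that minimum in C10 only. Lgals6 was not analysed here.

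Enzymes that build the N-glycans galectins bind mostly had higher mean levels in C10. Of 12 listed genes, 11 were compared and 7 were at least 2-fold higher in C10, with 0 higher in SVEC and a median log2 ratio of 1.16. Among all genes 18.9% were at least 2-fold higher in C10, and the median was 0.01. Mgat3, which adds the bisecting branch, had means of 17.6 CPM in C10 and 4.32 CPM in SVEC (4.08-fold). Mgat4b, a branching enzyme, had 26.1 and 7.00 CPM (3.73-fold), and Man2a1, a mannosidase of the Golgi, had 9.85 and 3.75 CPM (2.62-fold). These 3 were counted in 25, 37 and 14 of 46 C10 cells and in 6, 7 and 4 of 48 SVEC cells. With Fut8, B3gnt2, St6gal1 and St3gal4, they reached the minimum of 25% of cells in C10 only. The filter thus favoured a higher C10 level among them, and the count of 7 is a description only. The count rested on how cells were weighted: with pooled counts 3 of 11 were past 2-fold and the median was 0.61, and Mgat2 and St6gal1 turned to a lower ratio. The highest mean among them was 56.8 CPM (Mgat2 in C10), and the part of depth in this count was not tested beyond the cells of at least 100000 counts, where 6 of 11 were past 2-fold.

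Glycoproteins that galectins bind did not move one way. Of 16 listed genes, 15 were compared, 3 were at least 2-fold higher in C10 and 2 in SVEC, with a median log2 ratio of 0.05. These counts are close to the shares among all genes (18.9% higher in C10, 18.5% higher in SVEC). Lgals3bp, a secreted glycoprotein named for binding galectin-3, had the largest ratio of the list. It was counted in 21 of 46 C10 cells, from 0 through a median of 0 to 316 CPM, and in 41 of 48 SVEC cells, from 0 through 272 to 1175 CPM. Its means were 35.9 CPM and 351 CPM, 9.77-fold higher in SVEC, and the log2 ratio stayed between -3.32 and -2.88 over all scalings of the counts. Tfrc, the transferrin receptor, was 2.78-fold higher in SVEC (46.3 and 129 CPM). The 3 genes higher in C10 were Tgfbr2, a TGF-beta receptor (2.78-fold), Lamp1, a lysosomal membrane protein (2.36-fold), and Slc3a2, the heavy chain of an amino acid transporter (2.27-fold).

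The response to damaged endolysosomes, to which galectin-3 and galectin-8 belong, gave 1 of 8 compared genes past 2-fold, of 9 listed. Trim16, a ubiquitin ligase that binds galectin-3, had means of 26.7 CPM in C10 and 7.40 CPM in SVEC (3.61-fold). Among all genes 37.4% were past 2-fold, 18.9% higher in C10. The median log2 ratio of the list was 0.48, against 0.01 for all genes. With TMM factors 4 of the 8 were past 2-fold, with a median of 0.95, against 0.35 for all genes. Lgals8 itself had the higher mean in SVEC.

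**Figure D3:**
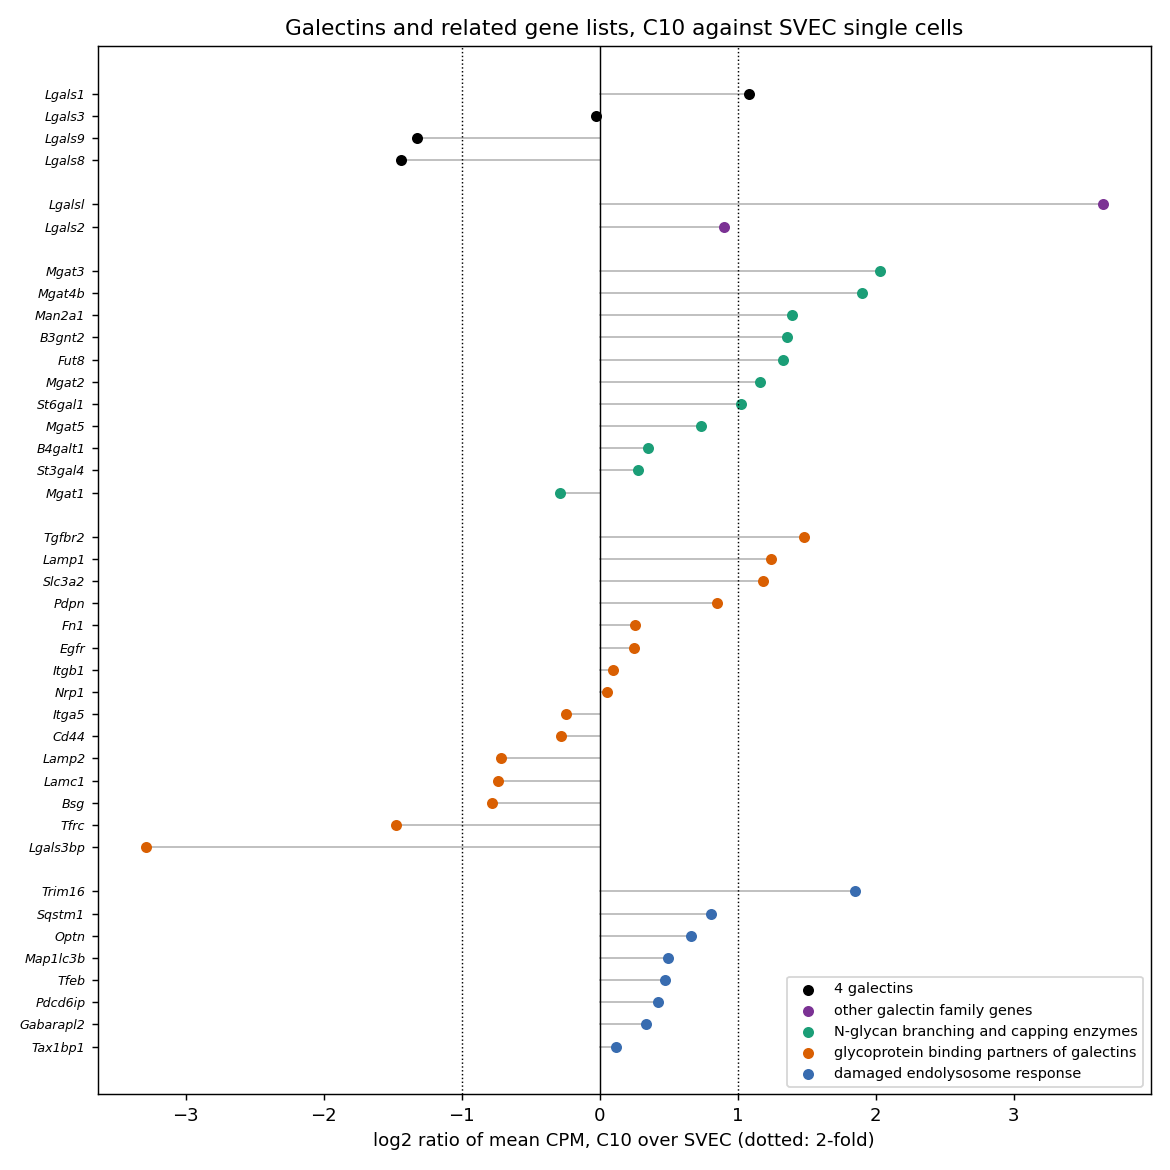
Log2 ratio of mean CPM, C10 over SVEC single cells, for the 4 galectins and for the compared genes of 4 related lists; each point is 1 gene, the lists are coloured, and dotted lines mark 2-fold. Of the N-glycan enzymes 7 of 11 lie past 2-fold toward C10, and Lgals3bp (-3.29) and Lgalsl (3.64) lie farthest from 0. Genes that reached the minimum of cells with a count in C10 only include Mgat3, Mgat4b, Man2a1, Fut8, B3gnt2, St6gal1, St3gal4, Egfr and Lgalsl.

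The C10 input series shows the same 4 genes in 1, 3 or 10 cells per library. Lgals1 had lowest, median and highest values of 0, 3723 and 7326 CPM over the 8 libraries of 1 cell, 2988, 5499 and 6913 CPM over the 6 of 3 cells, and 4922, 5833 and 8068 CPM over the 6 of 10 cells. The value of 0 belongs to replicate 1, and the next lowest 1-cell library was at 1601 CPM. The ranges overlapped, and all 6 of the 10-cell libraries were above the 1-cell median. The coefficient of variation was 0.604, 0.305 and 0.176 in the order of cell number. Mean Lgals1 was 1.62-fold higher in 10 cells and 1.36-fold higher in 3 cells than in 1 cell, with 51.2% and 48.3% of all compared genes past 2-fold in those comparisons. The median log2 ratios of all genes were 0.59 and 0.31. Without 1-cell replicate 1 the Lgals1 log2 ratios fell from 0.70 to 0.51 for 10 cells and from 0.45 to 0.26 for 3 cells. The medians of all genes were then 0.44 and 0.15. The 1-cell Lgals1 mean was 3737 ± 2258 CPM (SD) with that library and 4271 ± 1813 CPM without it.

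Lgals3 ranged from 0 through a median of 252 to 1005 CPM in 1 cell, from 185 through 650 to 1597 CPM in 3 cells, and from 357 through 563 to 1072 CPM in 10 cells. Its mean was 2.22-fold higher in 3 cells than in 1 cell, where 31.2% of compared genes were at least 2-fold higher in 3 cells and 17.1% at least 2-fold higher in 1 cell. In 10 cells it was 1.60-fold higher than in 1 cell. The 3-cell mean rested on replicates 1 and 5 (1357 and 1597 CPM), while the other 4 libraries lay between 185 and 721 CPM. The 3-cell log2 ratio of 1.15 was under 2-fold without 3-cell replicate 5 (0.86), without 3-cell replicate 1 (0.95), without 1-cell replicate 1 (0.96), with TMM factors (0.98) and with pooled counts (0.78). The 10-cell log2 ratio of 0.68 was past 2-fold without 1-cell replicate 2 (1.08) and with medians (1.16). Lgals9 ranged from 0 through 165 to 287 CPM in 1 cell, from 105 through 235 to 398 CPM in 3 cells and from 125 through 189 to 221 CPM in 10 cells. Its ratios to 1 cell were 1.51 for 3 cells and 1.14 for 10 cells, and the latter turned with TMM factors (log2 -0.21). Without 1-cell replicate 1 the log2 ratios of Lgals9 were 0.40 for 3 cells and -0.002 for 10 cells. One 1-cell library, replicate 2, had no Lgals9 count among 15385625, which allows at most 0.195 CPM.

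Lgals8 had its highest mean in 1 cell and its lowest in 10 cells, the reverse of the order of Lgals1. It ranged from 0 through 169 to 564 CPM in 1 cell, from 0 through 130 to 243 CPM in 3 cells, and from 0 through 32.7 to 67.7 CPM in 10 cells. The mean was 6.10-fold higher in 1 cell than in 10 cells (201 and 32.9 CPM), where 12.1% of compared genes were at least 2-fold higher in 1 cell and 39.1% in 10 cells. None of the 6 libraries of 10 cells reached the 1-cell median, and the 5 libraries of 1 cell with a count were all above the highest 10-cell library. Libraries without a count occurred at every input: 3 of 8, 1 of 6 and 2 of 6. One 10-cell library had 0 of 14778988 counts, which allows at most 0.203 CPM, while 2 others had 704 and 818 counts. Of the 4 members, 1 was past 2-fold between 10 cells and 1 cell, and 1 between 3 cells and 1 cell.

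Pools of 10 cells and of 3 cells could be tested, since each pool is a library of its own, although the p-values measure the spread between libraries, which may be technical. By edgeR's quasi-likelihood test with Benjamini-Hochberg adjustment, 0 of 13602 genes (0%) differed at an adjusted p under 0.05, with 1592 at an unadjusted p under 0.05. DESeq2 called 564 genes and limma on log2(CPM + 1) called 0. No galectin passed in any of the 3 tools. The edgeR log2 fold change of 10 over 3 cells was 0.10 for Lgals1 (SE 0.18, adjusted p = 0.997), -0.63 for Lgals3 (SE 0.42, adjusted p = 0.729), -2.12 for Lgals8 (SE 1.54, adjusted p = 0.802) and -0.56 for Lgals9 (SE 0.35, adjusted p = 0.696). Lgals8 had the largest estimate and the widest error of the 4.

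Libraries of 1 C10 cell exist in both sets, the single-cell set (46 used) and the 1-cell end of the input series (8). Mean Lgals3 was 2.97-fold higher in the single-cell set (1104 and 372 CPM), with 44 of 46 cells above the 1-cell median. Lgals9 was 1.90-fold higher and Lgals1 1.46-fold higher there, and Lgals8 was 2.36-fold higher in the 1-cell libraries. Without 1-cell replicate 1 the log2 ratios were 1.38 for Lgals3, 0.73 for Lgals9, 0.35 for Lgals1 and -1.43 for Lgals8. In this comparison 53.7% of 12303 genes were past 2-fold (32% higher in the single-cell set, 21.6% higher in the 1-cell libraries), so 2 of 4 members past it is close to the background. The Lgals8 log2 ratio of -1.24 was under 2-fold without 1-cell replicate 5 (-0.81) or replicate 13 (-0.87). The Lgals9 ratio of 0.93 was past it without 1-cell replicate 5 (1.11), 6 (1.02) or 14 (1.09) and with pooled counts (1.04). With TMM factors the share of past-fold genes that were higher in the single-cell set fell from 59.7% to 42.2%, Lgals1 turned to -0.21, and Lgals3 was at 0.97. The set and its depth cannot be told apart.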

How the data were processed

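Whole-number read counts per gene were deposited by the authors, 1 file per library, with 5 closing counters for unassigned reads that were left out of totals. Per the submitters' processing notes, STAR, HTSeq and FastQC were used. Versions, genome build, annotation and strand setting are not given in the sources used here. SMART-Seq v4 Plus cDNA was read from one end over 150 bases, per the labels' protocols, which describe no molecular identifiers.

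Counts were scaled to CPM. Libraries under 1000 counts were left out (2 C10 single cells). Genes compared between single-cell groups had a count in at least 25% of the libraries of 1 group, and in the input series in at least 50%. Past the fold means a ratio of mean CPM of at least 2. Where a library had no count, 3 counts were taken as its limit. Pools of 10 and 3 cells were tested with edgeR 4.0.16 (quasi-likelihood, TMM), with DESeq2 1.42.0 and limma 3.58.1 (log2 of CPM plus 1) as alternatives, after the scripts were tested on simulated data. No pair of libraries agreed within sampling noise (lowest chi-square per degree of freedom 3.23). Named genes are the 4 members, the other galectins, the 3 listed genes per direction with the largest ratios past the fold, and the 3 genes most like each member, of which 1 is not reported here. The members and lists were chosen with earlier results of these data known.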

Additional observations from a re-analysis of the deposited data

Results flagged for a closer look

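Lgals3 in replicate 10 of the 10-cell libraries was at 1072 CPM (10202 counts), and the other 5 libraries of that group lay between 357 and 607 CPM. The gap to the next library was 0.650 of the group's range, past the 95% limit of Dixon's test for 6 samples. It was the only one of 12 gene and group combinations past that limit, and chance passes about 1 in 20. Without this library the log2 ratio of Lgals3 between 10 cells and 1 cell was 0.43, against 0.68 with it.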

How the results depend on the processing

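The alternatives were other scalings, medians or pooled counts in place of means, deeper libraries only, other gene filters and tests, and each library left out in turn, the last added after seeing the data for the untested ratios. For C10 against SVEC the log2 ratio ranged from 0.97 to 1.48 for Lgals1, from -0.17 to 0.31 for Lgals3, from -1.88 to -0.88 for Lgals8 and from -1.32 to -0.92 for Lgals9. Leaving out each single cell in turn gave 1.04 to 1.10, -0.12 to 0.03, -1.65 to -1.11 and -1.45 to -1.25. The number of genes past 2-fold was 3478, against 1263 with medians over cells, 6659 with no filter beyond 1 count and 363 with a count in at least 90% of a line's cells; fewer or more genes could be compared by construction. For C10 single cells against 1-cell libraries it was 6601, and 2587 with medians. With medians the share of past-fold genes higher in C10 was 77.8%, and the share higher in 10 cells than in 1 cell went from 76.3% to 97.6%. The shares with medians are over fewer genes, since most genes with a group median of 0 gave no ratio. In the test of 10 against 3 cells, DESeq2 called 564 genes and a filter on a count in every library of 1 group left 4, in place of 0; the cause was not tested. With the replicate block 0 genes were called (1284 at an unadjusted p under 0.05), and edgeR's adjusted p for the galectins was between 0.786 and 0.840. Pools of the same number did not deviate together (correlation -0.02 to 0.05), and 2 of 6 correlated best with their own number, so the numbers were not taken as pairs. Leaving out 1 pool at a time always gave 0 calls. Depth limits Lgals8 and Lgals9 most: drawn down to 30000 counts, Lgals8 would be counted in 52.9% of C10 and 60.8% of SVEC cells.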
